A study of Homo sapiens with 6 samples.

Results

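The SOXC genes SOX4, SOX11 and SOX12 were followed through the H3K27ac peak lists of 6T-CEM cells (1 library) and Jurkat cells (2 libraries). Both are established human leukaemia lines of the T-cell acute lymphoblastic type (T-ALL). H3K27ac, acetylation of lysine 27 on histone H3, is found at promoters and enhancers in use. The peaks of the 3 genes were chosen by position: every called peak that shared at least 1 base with a gene body or with the 200 kb on either side of it. The genes themselves were picked with the called peaks around them already known, so their peak values are given as a description, with no test. The rule gave 85 of the 83410 peaks on chromosomes 1 to 22 and X, with 32 from 6T-CEM, 21 from Jurkat replicate 1 and 32 from Jurkat replicate 2. By gene, 19 peaks belonged to SOX4, 19 to SOX11 and 47 to SOX12. The 3 genes stand among 19974 protein-coding genes used for comparison.

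The series held 6 samples, of which the 3 IgG controls were left out. GNE-987, a BET inhibitor, is named in the study title, and a 24 h exposure at 10 nM is mentioned for both lines, but the labels of single samples give no treatment, so each library may come from treated or untreated cells. No genetic change is labelled in either line, and nothing says whether the Jurkat replicates were separate cultures. The peak names of the Jurkat lists carry different prefixes (Jur in replicate 1, Jur-NE in replicate 2), whose meaning the labels do not give. After chromosome filtering the lists held 35154 peaks over 34.3 Mb in 6T-CEM, 16159 peaks over 16.2 Mb in Jurkat replicate 1 and 32097 peaks over 27.6 Mb in Jurkat replicate 2. Without read counts the sequencing depth is unknown, and an absent peak means only that none was called. With 1 library of 6T-CEM, no test between the lines was possible, and the difference between the Jurkat libraries is given beside each comparison. As a check of the labelled cell type, all 8 T-cell marker genes read had peak bases within 25 kb in every library. Among all protein-coding genes 64.5% had such bases in 6T-CEM, against 57.2% and 58.6% in Jurkat. The windows of the markers CD3D, CD3E and CD3G share peaks, so the 8 genes are not 8 separate places. The B-cell genes MS4A1, PAX5 and EBF1 and the erythroid gene HBB had 0 bp throughout, but these lists are given only in part. Of 4 myeloid markers 4 had bases in 6T-CEM, against 2 and 3 in Jurkat, too few genes to tell from those shares.

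SOX proteins are transcription factors that bind DNA through an HMG box, a domain that bends the double helix. SOX4, SOX11 and SOX12 form the SOXC group: each is encoded by an intronless gene, and they share a C-terminal transactivation domain. SOX4 is needed for B-cell development in mice and contributes to that of T cells. SOX11 acts mainly in neural and other developing tissues, is not usually expressed in normal lymphocytes, and is a marker of mantle cell lymphoma. SOX12 is broadly expressed and is the weakest transactivator of the group in mouse studies.

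SOX4 lies at chr6:21593751-21598619 on the plus strand, SOX11 at chr2:5692384-5701385 and SOX12 at chr20:325552-330224 on the plus strand (hg38, RefSeq annotation of GRCh38.p14, the same build). The promoters of SOX4 and SOX12 are shown because only these 2 of the 3 genes had a promoter entry. Peaks reached the SOX4 start site in 6T-CEM and Jurkat replicate 1, and none reached that of SOX12. Each window runs from 250 bases before the annotated start to 50 bases after it, 5′ to 3′ on the plus strand, from RefSeq (GRCh38.p14). Capitals mark 4 motifs searched on both strands: CCAAT (bound by NF-Y), the GC box GGGCGG (bound by SP factors), the E-box CAGCTG and the octamer ATGCAAAT (bound by POU factors). No SOX11 promoter is shown, because SOX11 had no such entry.
SOX4 promoter, chr6:21593501-21593800: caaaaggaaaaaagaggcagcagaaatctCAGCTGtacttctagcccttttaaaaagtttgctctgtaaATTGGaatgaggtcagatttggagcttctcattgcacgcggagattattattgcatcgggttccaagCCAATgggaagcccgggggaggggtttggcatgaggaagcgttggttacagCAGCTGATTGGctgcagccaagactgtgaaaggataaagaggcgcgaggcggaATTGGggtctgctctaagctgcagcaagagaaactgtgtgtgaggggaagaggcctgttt
SOX12 promoter, chr20:325302-325601: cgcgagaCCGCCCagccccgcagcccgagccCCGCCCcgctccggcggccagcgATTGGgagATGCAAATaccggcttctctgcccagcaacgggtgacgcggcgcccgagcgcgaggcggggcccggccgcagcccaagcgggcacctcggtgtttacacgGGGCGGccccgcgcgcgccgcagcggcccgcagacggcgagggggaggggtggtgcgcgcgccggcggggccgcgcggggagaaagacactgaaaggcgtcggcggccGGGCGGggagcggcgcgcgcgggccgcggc

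The sequences differ widely in composition. The SOX4 window is 49.3% G and C with 8 CG pairs, whereas the SOX12 window is 80.3% G and C with 54 CG pairs. Over 15812 protein-coding promoters the medians were 62.7% and 22 pairs, so SOX12 is near the top of the range in CG pairs (percentile 99.4) and SOX4 below the middle (percentile 23.6). SOX4 holds 4 CCAAT matches, of which those on the minus strand read ATTGG here, and 2 E-boxes. One E-box is directly followed by a CCAAT match on the other strand, with no shared base. At least as many CCAAT matches occur in 1.26% of the promoters and at least as many of these E-boxes in 1.97%. SOX12 holds 4 GC boxes (CCGCCC on the minus strand), 1 CCAAT and 1 octamer, which was found in 1.70% of promoters. At least 4 GC boxes occur in 12.9%. No match of the SOX core letters ACAAT or of AACAAAG lies in either window. These are matches of letters and not bound sites.

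A peak covered 263 of the 300 promoter bases of SOX4 in 6T-CEM and 54 in Jurkat replicate 1, while the Jurkat replicate 2 peak began downstream of the window. The SOX12 promoter lay under no peak in any library. Of all promoters of this length, 32.2% lay under a 6T-CEM peak, against 34.6% for Jurkat replicate 1 and 23.6% for Jurkat replicate 2, and 57.1% lay under none.

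SOX4 was the SOXC gene marked in every library. In 6T-CEM a peak of 3413 bp at chr6:21593538-21596950 covered the start site and most of the body, with a fold enrichment of 14.4 and a −log10 q of 46.5. Fold is the peak caller's ratio to its local background, and fold and q here and below are the authors' own values. Jurkat replicate 2 had a peak of nearly the same extent, 2887 bp at chr6:21594028-21596914, with a fold of 12.6 and a −log10 q of 29.0. In Jurkat replicate 1 the same stretch held a pair of smaller peaks, 895 bp at chr6:21593747-21594641 with a fold of 6.86 and 885 bp at chr6:21595446-21596330 with a fold of 4.44. The wide peaks of 6T-CEM and Jurkat replicate 2 ranked high within their own lists, at percentiles 98.5 and 96.6 of −log10 q. The Jurkat replicate 1 peaks stood at 62.8 and 31.9. Peaks thus covered 65.7% of the SOX4 body in 6T-CEM, against 36.5% in Jurkat replicate 1 and 59.3% in Jurkat replicate 2. The Jurkat libraries differed from each other by more than 6T-CEM differed from Jurkat replicate 2. A peak over the body in every library was found for 30.1% of all protein-coding genes, so SOX4 shares this with many genes.

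**Figure D1:**
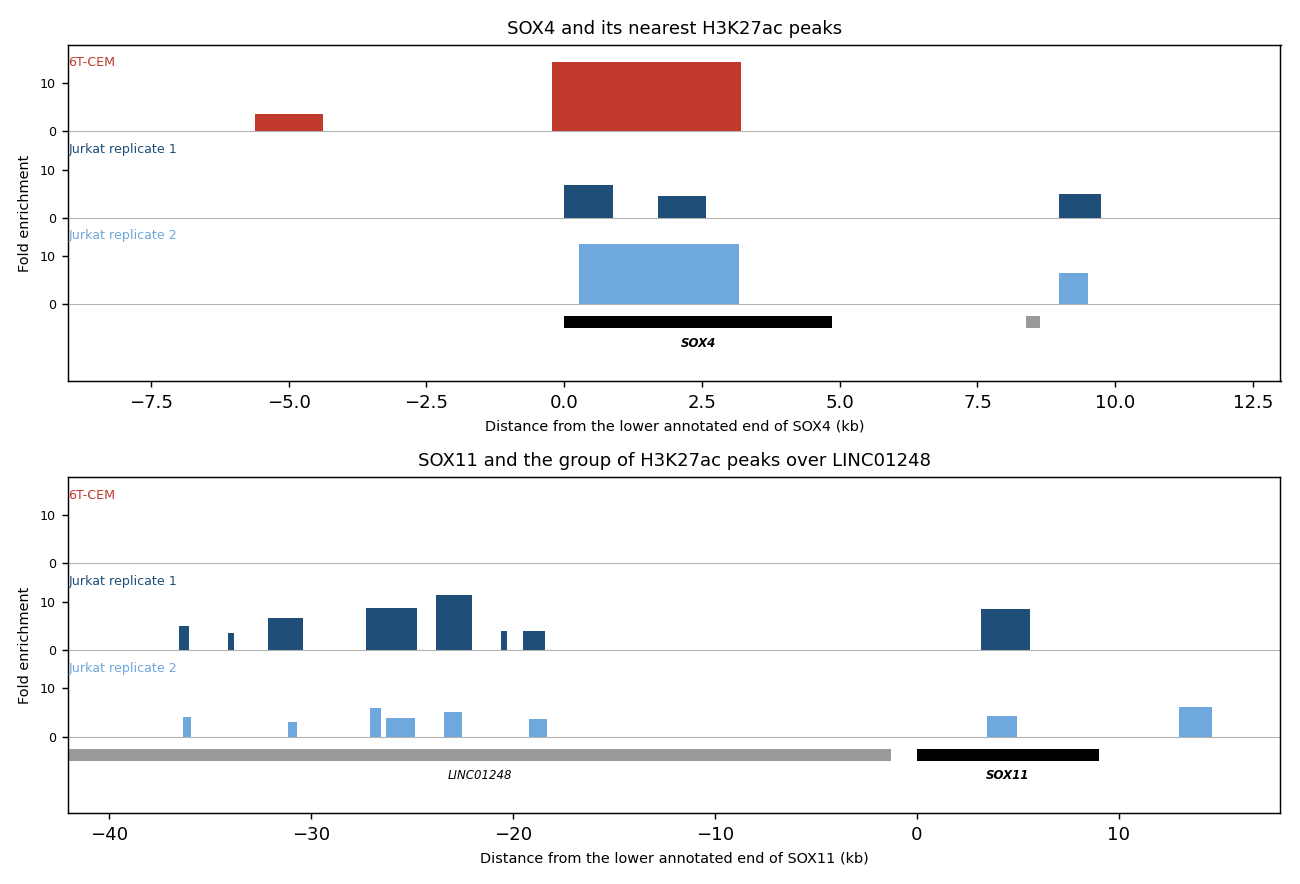
Called H3K27ac peaks close to SOX4 (top) and SOX11 (bottom), plotted by distance in kb from the gene's lower annotated end. Box width is peak width, box height is the authors' fold enrichment, and the bars under the tracks are annotated genes. The SOX4 body holds peaks in 6T-CEM (fold 14.4) and both Jurkat libraries, whereas SOX11 and LINC01248 hold peaks in Jurkat only.

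The peaks called in the near flanks of SOX4 differed between the lines. Both Jurkat libraries had a peak that began 4.11 kb past the upper end of the gene, 756 bp with a fold of 4.97 in replicate 1 and 519 bp with a fold of 6.56 in replicate 2, and 6T-CEM had none there. 6T-CEM instead had a peak of 1241 bp and fold 3.50 that ended 4.38 kb below the start site, where neither Jurkat library had one. These were the nearest peaks outside the body in each library.

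Farther from SOX4 the marked sites were small and lay inside CASC15, a long non-coding RNA gene above SOX4. In 6T-CEM, 6 peaks of 294 to 517 bp lay 124 to 155 kb above the gene, with folds of 3.21 to 5.75. Jurkat replicate 2 also had 6, of 298 to 477 bp, 67.9 to 193 kb above it, with folds of 2.99 to 6.78. Jurkat replicate 1 had none, and its farthest SOX4 peak lay at 4.11 kb. Only 2 of these sites were common to 6T-CEM and Jurkat replicate 2, one beginning 124 kb and the other 138 kb above the gene. At the latter the summits were at 143 kb from the start site in both. The CASC15 promoter window held no peak in any library, and the nearest Jurkat replicate 2 peak, chr6:21666470-21666930, began just past it. With each list limited to its 16159 peaks of highest −log10 q, 6T-CEM kept 1 of its 8 SOX4 peaks, Jurkat replicate 1 kept 3 of 3 and Jurkat replicate 2 kept 5 of 8.

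Over the whole SOX4 window peaks covered 7051 bp in 6T-CEM, against 2536 bp in Jurkat replicate 1 and 5817 bp in Jurkat replicate 2. 6T-CEM was the highest of the libraries, as it was for 52.4% of all protein-coding genes. On the log2 scale, with 500 bp added to each, 6T-CEM over the Jurkat mean was 0.22 after centring on the median ratio, 0.47, of the 18238 genes that had covered bases in some library. It was 0.60 against Jurkat replicate 1 alone and −0.092 against Jurkat replicate 2 alone, and Jurkat replicate 1 over replicate 2 gave −0.72. The difference between the lines at SOX4 was therefore smaller than that between the Jurkat libraries.

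**Figure D2:**
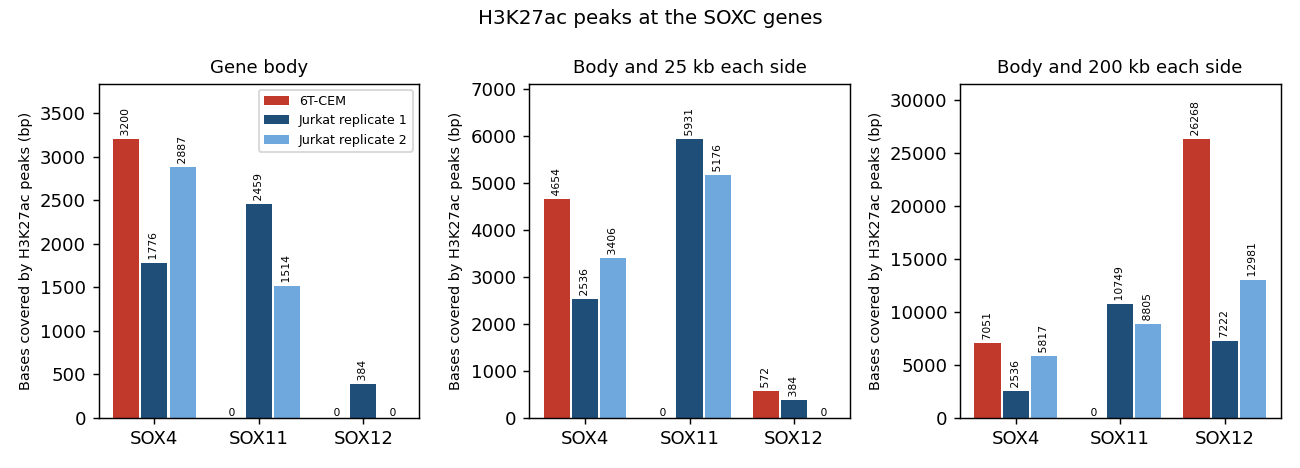
Bases covered by H3K27ac peaks (bp) at the SOXC genes over the body, with 25 kb and with 200 kb added on each side. Bars are single libraries, so there is no error bar. SOX11 has 0 bp in 6T-CEM at each distance, and SOX12 has 384 bp over its body in Jurkat replicate 1 alone.

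SOX11 had the clearest split between the lines. 6T-CEM had no peak over the gene or within 200 kb of it, whereas Jurkat replicate 1 had 8 peaks covering 10749 bp and Jurkat replicate 2 had 11 covering 8805 bp. The body held 1 peak in each Jurkat library, 2459 bp at chr2:5695542-5698000 with a fold of 8.62 and a −log10 q of 19.4 in replicate 1, and 1514 bp at chr2:5695833-5697346 with a fold of 4.31 and a −log10 q of 19.5 in replicate 2. Their summits lay 39 bp apart, 4.09 and 4.13 kb from the lower end of the gene. The body peak covered 27.3% of the gene in Jurkat replicate 1 and 16.8% in Jurkat replicate 2, and it did not reach either end. The annotation table used here gives no strand for SOX11. Body peaks in both Jurkat libraries without any in 6T-CEM were found for 2.67% of all protein-coding genes.

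Most of the SOX11 signal lay away from the gene, over LINC01248, a non-coding RNA gene annotated on the minus strand just below SOX11. Jurkat replicate 1 had 7 peaks there, spread over 18.1 kb from chr2:5655876 to 5673995 and covering 8290 bp. Jurkat replicate 2 had 6 in nearly the same span, chr2:5656043 to 5674097, covering 4666 bp. The group began 18.4 kb below SOX11 in replicate 1 and 18.3 kb below it in replicate 2. The highest fold of the whole SOX11 window in Jurkat replicate 1, 11.5, was in this group, at chr2:5668565-5670342, above that of the body peak. In Jurkat replicate 2 the highest of the group was 6.03, at chr2:5665336-5665838, and a peak of 1646 bp beginning 3.98 kb past the upper end of SOX11 reached 6.15. The promoter window of LINC01248 held no peak in any library.

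The Jurkat libraries shared the main SOX11 peaks but gave them different folds. Joining peaks that share a base gave 12 regions at SOX11, of which 6 held peaks of both Jurkat libraries, 2 of replicate 1 alone and 4 of replicate 2 alone. In the 6 shared regions the nearest summits lay 39 to 315 bp apart. Jurkat replicate 1 had the higher fold and the greater width in 6 of 6, but the higher −log10 q in 3 of 6. One region, chr2:5665135-5667660, held 2 peaks of replicate 2. The one of nearest summit was compared, with a fold of 3.95, and the other had a fold of 6.03. The whole list of replicate 1 also had the higher median fold, 5.17 against 4.33 in replicate 2. Its median width was greater too, 762 against 583 bp. These differences lie beside the comparison of single peaks. The peaks of replicate 2 alone included the farthest one, 318 bp at 172 kb below the gene with a −log10 q of 2.10, close to the lowest value of 2.00 in that list.

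Stitching peaks 12500 bp or less apart and scoring each stitched region by the sum of width times fold put the LINC01248 group at rank 205 of 8853 in Jurkat replicate 1, among the 425 large regions above the tangent point of the ranked curve. In Jurkat replicate 2 it ranked 1642 of 11190 and was not among the 585 large regions. The body peak of SOX11 was not in a large region in either library. No read signal was used, so these regions only approximate super-enhancers.

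**Figure D3:**
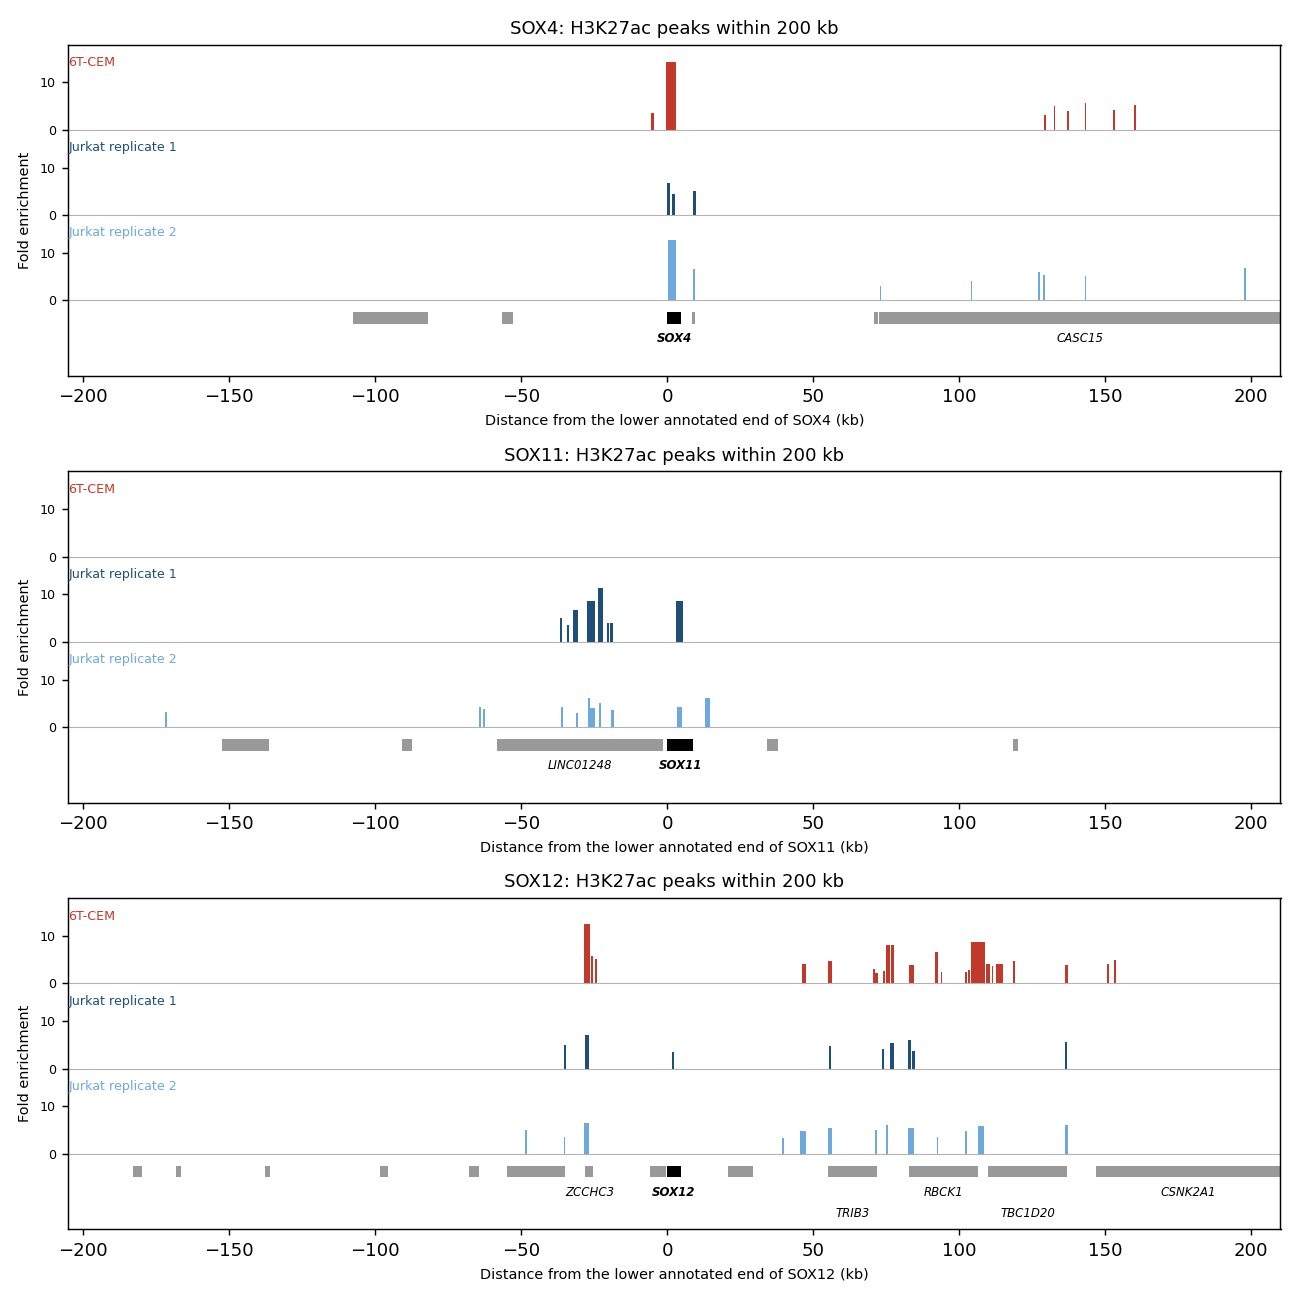
Called H3K27ac peaks within 200 kb of SOX4, SOX11 and SOX12, by distance in kb from the gene's lower annotated end. Box height is the authors' fold enrichment, very narrow peaks are drawn slightly wider to be visible, and the bars under the tracks are annotated genes. SOX11 has 0 peaks in 6T-CEM against 8 and 11 in the Jurkat libraries, and the SOX12 window is filled by peaks at its neighbours.

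The stretch without 6T-CEM peaks extends well past the SOX11 window, and most of it held no Jurkat peaks. No 6T-CEM peak lies between chr2:3577219 and 6851273, a stretch of 3.27 Mb. Jurkat replicate 1 had 8 peaks in it, all of them in the SOX11 window, and Jurkat replicate 2 had 13, of which 2 lay outside the window. The nearest of these lay 204 kb below the gene, just beyond the 200 kb limit. SOX11 is the nearest protein-coding gene to each of its 19 peaks, and the 8 annotated genes in its window are SOX11 and 7 non-coding RNA genes.

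Genes with peaks within 200 kb in both Jurkat libraries but not in 6T-CEM made up 1.53% of the protein-coding genes, or 306 genes. Of these 218 had only 1 peak in the Jurkat library with fewer, and their median covered bases were 914 bp in Jurkat replicate 1 and 908 bp in Jurkat replicate 2. With at least 8 peaks in replicate 1 and at least 11 in replicate 2 there were 5 genes, 0.025% of all. These limits are the counts of SOX11 itself, so it meets them by construction and the share is no test of rarity. Besides SOX11 they were SYK, PRKCA, APOH and OPALIN, named here after their values were seen. PRKCA and APOH lie 73.2 kb apart, and OPALIN lies 4.66 kb from DNTT, so their windows share peaks with neighbours. For SYK no such distance is given here. SOX11 has no protein-coding neighbour in its window. The 6T-CEM list is the longest of the 3.

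**Figure D4:**
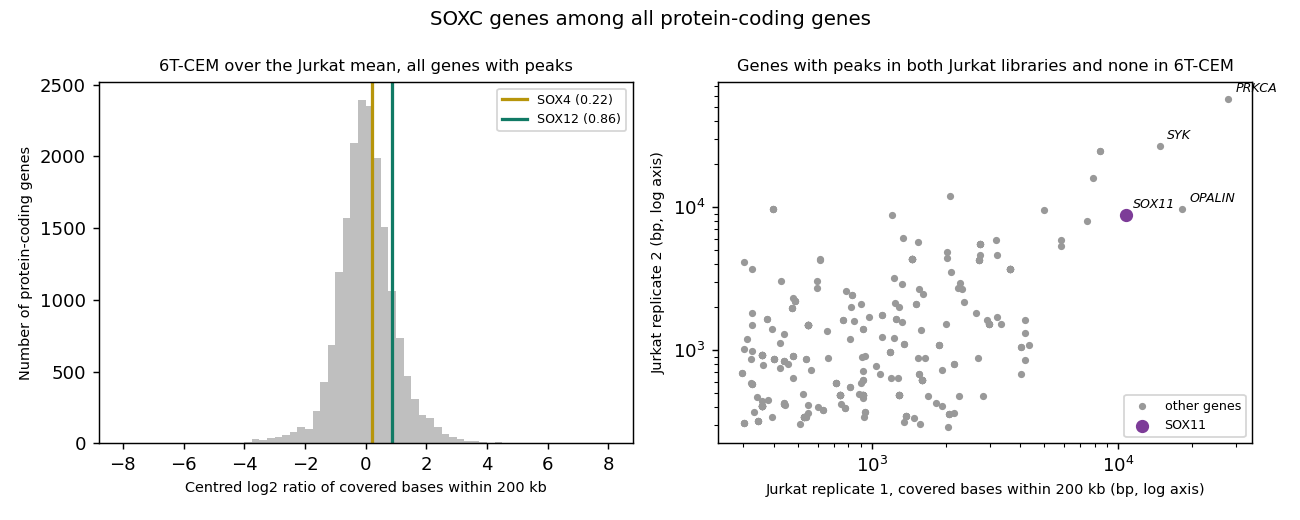
Left, number of protein-coding genes by centred log2 ratio of peak bases within 200 kb, 6T-CEM over the Jurkat mean, with SOX4 (0.22) and SOX12 (0.86) as lines. Right, covered bases (bp, log axes) in the Jurkat libraries for the 306 genes with peaks in both of them but not in 6T-CEM, with SOX11 at 10749 and 8805 bp among the highest.

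SOX12 itself was almost unmarked. No peak lay over its body in 6T-CEM or in Jurkat replicate 2. Jurkat replicate 1 had 1 of 384 bp at chr20:327357-327740, with a fold of 3.44 and a −log10 q of 3.25, which stood at percentile 9.47 of its list. It covered 8.22% of the body and was absent among peaks with a −log10 q of 5 or more. Of all genes, 3.28% had body peaks in Jurkat replicate 1 alone. The nearest 6T-CEM peak lay 24.1 kb below SOX12, and the nearest Jurkat replicate 2 peak 26.8 kb below it.

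The SOX12 window nevertheless had the most covered bases of the 3 in 6T-CEM and Jurkat replicate 2, nearly all at its neighbours. It held 24 peaks covering 26268 bp in 6T-CEM, against 10 covering 7222 bp in Jurkat replicate 1 and 13 covering 12981 bp in Jurkat replicate 2. None of the 6T-CEM peaks, 1 in Jurkat replicate 1 and none in Jurkat replicate 2 had SOX12 as nearest protein-coding gene. For SOX4 these numbers were 2 of 8, 3 of 3 and 2 of 8. The window holds 14 protein-coding genes, and peaks lay over RBCK1, a subunit gene of the linear ubiquitin ligase complex, with 6817 bp in 6T-CEM, 1891 bp in Jurkat replicate 1 and 2662 bp in Jurkat replicate 2. Over TBC1D20, a Rab GTPase-activating protein gene, they covered 4752 bp in 6T-CEM, against 663 and 604 bp in the Jurkat libraries. The peak of highest fold was at ZCCHC3, a zinc finger protein gene, at chr20:297211-299216 in 6T-CEM with a fold of 12.49. The overlapping Jurkat peaks there had folds of 7.08 and 6.48.

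In 6T-CEM, 16 of these peaks, from the end of TRIB3 to TBC1D20, formed a stitched region of 48.3 kb that ranked 359 of 13075 and was among the 586 large regions. It began 65.8 kb from SOX12. The Jurkat counterparts, of 11.1 kb at rank 1332 in replicate 1 and 37.4 kb at rank 1017 in replicate 2, were not large. The centred log2 ratio of 6T-CEM to the Jurkat mean over the SOX12 window was 0.86 (1.08 against replicate 1, 0.64 against replicate 2), and Jurkat replicate 1 over replicate 2 gave −0.47. This ratio describes the neighbours, since SOX12 contributed 384 bp of one library to it. With the window narrowed to 25 kb it was 0.32, from 572 bp in 6T-CEM, 384 bp in Jurkat replicate 1 and 0 bp in Jurkat replicate 2.

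Region classes also differed among the SOXC genes. Of 13 regions at SOX4, 1 held peaks of all libraries, the body peak, and 1 of both Jurkat libraries without 6T-CEM. 6T-CEM alone held 5 and Jurkat replicate 2 alone 4. At SOX12, 5 of 27 held all libraries, 12 were of 6T-CEM alone and 1 of both Jurkat libraries without 6T-CEM. In the series as a whole 17.4% of 49528 regions held all libraries, 32.2% were of 6T-CEM alone and 3.20% of both Jurkat libraries without 6T-CEM. At SOX11 the last class held 6 of the 12 regions, and no region held a 6T-CEM peak, as the choice of the gene implies.

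The body peaks of the SOX family differed from gene to gene. Of 19 SOX genes on the chromosomes used, SOX4 and SOX6 had a body peak in every library, SOX11 and SOX5 in both Jurkat libraries and not in 6T-CEM, and SOX10 in 6T-CEM and Jurkat replicate 2. SOX13 and SOX15 had one in Jurkat replicate 2 alone, SOX12 in Jurkat replicate 1 alone, and the remaining 11 in no library, beside 42.7% of all protein-coding genes with none. SOX6, a regulator of cartilage and red cell development, had only 492 bp over its body in 6T-CEM, 458 bp in Jurkat replicate 1 and 253 bp in Jurkat replicate 2. SOX5, its close relative, had 0 bp in 6T-CEM, against 456 and 800 bp in the Jurkat libraries. Of the family, SOX4 and SOX11 thus had the widest body coverage in Jurkat replicate 1. In Jurkat replicate 2, SOX13 with 3990 bp had more than SOX4, and SOX10 with 1740 bp more than SOX11.

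**Figure D5:**
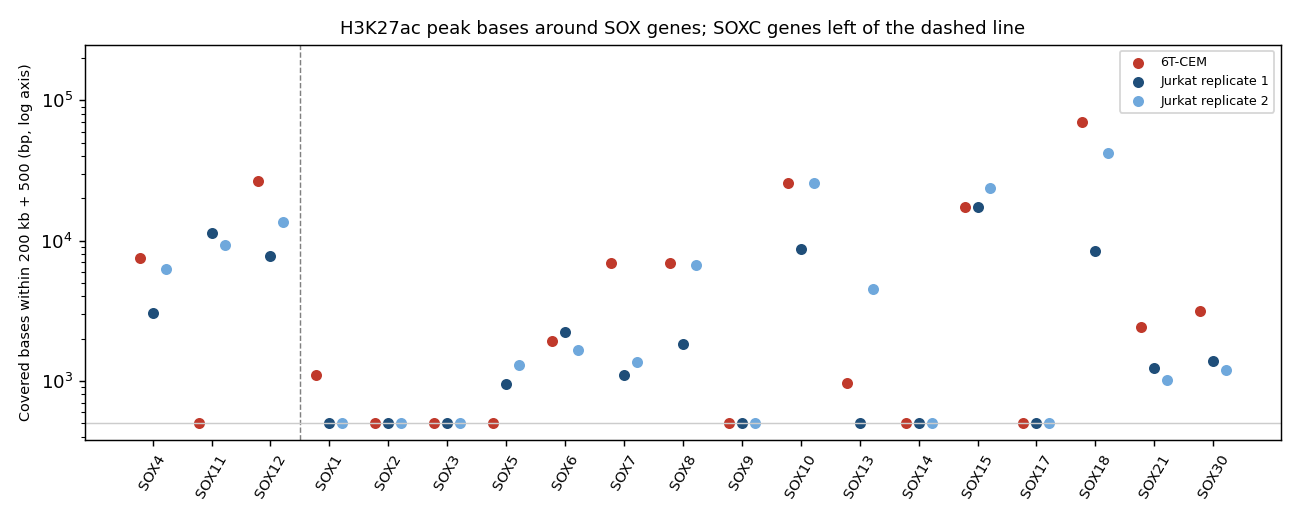
Covered bases within 200 kb plus 500 (bp, log axis) for the SOXC genes, left of the dashed line, and 16 other SOX genes, in each library. Points on the grey line have 0 bp. SOX11 and SOX5 have bases in both Jurkat libraries and 0 bp in 6T-CEM, and SOX2, SOX3, SOX9, SOX14 and SOX17 have 0 bp in all.

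Within 200 kb, 10 of the 16 other SOX genes had covered bases in 6T-CEM, against 9 for Jurkat replicate 1 and 10 for Jurkat replicate 2. Of all protein-coding genes 87.8% had them in 6T-CEM, against 84.1% and 82.6% in Jurkat. In 6T-CEM 7 were above both Jurkat libraries and 1, SOX5, below both, beside 52.4% and 11.4% of all protein-coding genes. Median covered bases of the 16 were 1010 bp in 6T-CEM, against 529 bp in Jurkat replicate 1 and 747 bp in Jurkat replicate 2. Those of all genes were 5621 bp in 6T-CEM, against 3362 and 4120 bp in Jurkat. The highest in 6T-CEM were SOX18 and SOX10.

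Genes tied to SOXC proteins in the literature were read in the same windows. Upstream, TGF-beta signalling induces SOX4 in several cell types. TGFB1, its ligand gene, had 38786 bp in 6T-CEM, 7071 bp in Jurkat replicate 1 and 20631 bp in Jurkat replicate 2, and SMAD2, a signal transducer, had 3640 bp, against 5188 and 5343 bp in Jurkat. Of the 6 upstream genes 2 were above and 1 below both Jurkat libraries in 6T-CEM. Of 7 partner genes 4 were above and 1 below. The HMG-box gene LEF1, which responds to WNT signals, had 33906 bp in 6T-CEM, against 21077 and 15457 bp in Jurkat, and POU3F2, which encodes a neural partner of SOX11 in mice, had 799 bp, against 346 and 0 bp.

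Of 7 target genes, 3 were above and 1 below both Jurkat libraries in 6T-CEM. TUBB3, a neuronal tubulin gene activated by SOX4 and SOX11 in the developing nervous system, had 19516 bp in 6T-CEM, against 5994 bp in Jurkat replicate 1 and 7329 bp in Jurkat replicate 2. Within 25 kb of TUBB3 6T-CEM had 10501 bp and each Jurkat library 0 bp. Only 801 bp of this lay over the TUBB3 body, so most of it was outside the gene. PAX5, a B-cell factor gene that SOX11 regulates in mantle cell lymphoma, had 0 bp in 6T-CEM, and 3223 and 1697 bp in the Jurkat libraries, none of it within 25 kb of the gene. TEAD2, a SOXC target in mice, had 19448 bp in 6T-CEM, between 11630 bp in Jurkat replicate 1 and 38250 bp in Jurkat replicate 2. The neuronal genes DCX and MAP2 had 0 bp in all libraries. In all, 9 of the 20 linked genes were above and 3 below, beside 52.4% and 11.4% of all genes, and these shares are near the background.

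By covered bases within 25 kb of the body, genes on other chromosomes were ordered by Euclidean distance from each SOXC gene over the 3 libraries, on the log2 scale with 500 bp added. Nearest to SOX11, with 0 bp in 6T-CEM, 5931 bp in Jurkat replicate 1 and 5176 bp in Jurkat replicate 2, were GFRA1 (distance 0.18), RPS6KC1 (0.34), CD1D (0.35), RNF130 (0.39) and CCDC120 (0.46), and these 5 were the only genes within 0.5. GFRA1 had 0 bp in 6T-CEM and 5824 and 5916 bp in Jurkat. The patterns of SOX4 and SOX12 were common ones, with 309 and 304 genes within the same distance. The nearest to SOX4 were CALM3, PTGIR, DHRS4, MRPL49 and SYVN1, and those to SOX12 were XPR1, FUCA1, ELP4, IMMP1L and C8orf76. With 3 libraries, such likeness is a description only.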

How the data were processed

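Peak lists from H3K27ac libraries of 6T-CEM (1) and Jurkat (2) were used. Per the submitters' processing notes, Bowtie2 2.2.5 and MACS2 2.2.7 were run on hg38; neither options nor the use of IgG controls is stated there. The series description names CUT&Tag, while the labels' extraction protocol mentions sonication. The authors' deposited lists, 1 per library, give for each peak a fold enrichment (ratio to background), −log10 p and −log10 q, a score and the summit offset, and were taken as they are.

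Only chromosomes 1 to 22 and X were used, and the bases under peaks were summed per window. Gene positions and promoters came from RefSeq (GRCh38.p14), and 2 of the 3 genes had a promoter entry. Named genes were the SOXC genes, the other SOX genes, linked genes, window neighbours, the 5 most alike genes and those nearest to stitched regions. The B-cell and erythroid marker lists are not reported here in full. Members and lists were chosen with earlier results of these data known. Alternatives were a −log10 q minimum of 5, equal list length, other windows and added bases, width times fold, summit in the window, peaks joined within 1 kb, a peak in either Jurkat library, and each Jurkat library left out. No test was run. Window sums and region classes were tested on simulated data. Python 3.11.15, NumPy 2.4.6, pandas 2.3.3 and matplotlib 3.10.9 were used.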

Additional observations from a re-analysis of the deposited data

How the results depend on the processing

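Body peaks at SOX4 in every library and at SOX11 in both Jurkat libraries were present under each alternative run for them. The alternatives for SOX11 in 6T-CEM could not add a peak and so say nothing of its absence. The SOX4 ratio of 0.22 changed sign under 3 alternatives. It was −0.20 at equal list length and −1.14 with 500 kb windows, and ranged from −0.092 to 0.60 when 1 Jurkat library was left out. It was 0.024 with 100 kb windows and 0.46 by width times fold. The SOX12 ratio of 0.86 was 0.32 with 25 kb and 0.45 with 100 kb windows. No such ratio was formed for SOX11, which has 0 bp in 6T-CEM. The cause of these shifts was not tested.

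With peaks of −log10 q of 5 or more, SOX4 kept 4 peaks in 6T-CEM and 1 in Jurkat replicate 1 (1 over the body), SOX11 kept 4 and 7 in the Jurkat libraries, and SOX12 kept 4 in Jurkat replicate 1 and 0 over its body. Regions of both Jurkat libraries without 6T-CEM were then 0 at SOX4, 3 at SOX11 and 0 at SOX12, and 2 at SOX4 were of 6T-CEM alone. At equal list length SOX4 kept 1 peak in 6T-CEM and 5 in Jurkat replicate 2, SOX11 kept 7 in Jurkat replicate 2 and SOX12 kept 10 in 6T-CEM. Regions of 6T-CEM alone were then 0 at SOX4 and 2 at SOX12, and those of Jurkat without 6T-CEM 0 at SOX12. Joining peaks within 1 kb left 4 regions of 6T-CEM alone at SOX12. With a peak in either Jurkat library, regions of both lines were 3 at SOX4 and 11 at SOX12, and those of Jurkat without 6T-CEM were 5 at SOX4, 12 at SOX11 and 4 at SOX12. With 1 Jurkat library left out, regions of both lines ranged from 1 to 3 at SOX4 and from 6 to 10 at SOX12, and those of Jurkat without 6T-CEM from 1 to 5 at SOX4, 8 to 11 at SOX11 and 2 to 3 at SOX12. Of the other SOX genes, 4 were above both Jurkat libraries in 6T-CEM with 25 kb windows and 4 at equal list length, and 2 were below both with 25 kb windows. Of the linked genes 0 were below both with 25 kb windows.

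Depth is unknown and 6T-CEM has 1 library, so small and missing peaks limit each comparison. No paired analysis was possible, because 6T-CEM has 1 H3K27ac library and the labels pair no library of one line with a library of the other.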

Other observations

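CASC15, the long non-coding RNA gene above SOX4, runs far past the 200 kb limit and was heavily marked there in every library. Beyond the limit it held 44 peaks covering 26457 bp in 6T-CEM, against 48 covering 56695 bp in Jurkat replicate 1 and 54 covering 33193 bp in Jurkat replicate 2. The first lay 209 kb from SOX4 in 6T-CEM, and 248 and 209 kb from it in the Jurkat libraries. Jurkat replicate 1, which had no CASC15 peak inside the limit, thus had the most covered bases outside it. In every library the highest fold there was above that over SOX4 itself. Jurkat replicate 2 had the largest of all, above its own 12.6 over SOX4. The highest fold was 16.2 in 6T-CEM, against 14.4 over SOX4, and 11.2 in Jurkat replicate 1, against 6.86 over SOX4.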
